A study of Homo sapiens with 3 samples.

Results

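The Frizzled receptors are the cell-surface receptors for WNT ligands. All 10 human genes named FZD1 to FZD10 were taken by symbol from the 19220 genes of the count table, and each of the 10 has 1 entry there. RNA was sequenced from CAL27, a human oral squamous cell carcinoma line kept in drug-free medium and labelled wild type, and from 2 lines derived from it. CAL27/5FU is resistant to 5-fluorouracil (5FU), a thymidylate synthase inhibitor, and was kept in 10 µM 5FU, whereas CAL27/OXA is resistant to oxaliplatin (OXA), a platinum drug that crosslinks DNA, and was kept in 10 µM OXA. They are called the 5FU line and the OXA line below where that is shorter, and all 3 lines grew in the same serum-supplemented medium. The 5FU line was raised by stepwise exposure to the drug over about a year. How the OXA line was raised, and whether either resistant line is a single clone, is not given in the sources used here. Each line is represented by 1 labelled library, so differences rest on single libraries and are given without p-values. Both resistant lines were compared with the same CAL27 library, and drug in the medium at harvest and resistance itself cannot be told apart.

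Frizzleds are multi-pass membrane proteins of the class F receptors. Their cysteine-rich extracellular domain binds the lipid of a WNT ligand, and their intracellular face recruits Dishevelled. Together with the co-receptors LRP5 or LRP6 they start the signal that stabilises β-catenin, the canonical branch studied here as a route to 5FU resistance. Without those co-receptors some Frizzleds, FZD3 and FZD6 among them, serve in planar cell polarity, the alignment of cells within an epithelial sheet. The membrane ubiquitin ligases RNF43 and ZNRF3 remove Frizzleds from the surface.

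The libraries held 41786182 (CAL27), 37297713 (CAL27/5FU) and 43455488 (CAL27/OXA) counts, with 15275 to 15407 genes above 0. Of the 9 squamous epithelial markers, all 9 were above 3 counts in every library. Their summed level was 14652 CPM (reads scaled to a fixed library total) in CAL27, 3475 in the 5FU line and 4903 in the OXA line. In these resistant lines 7 of 9 and 5 of 9 were more than 2-fold lower, beside 6.72% and 9.28% of all genes tested. The keratin KRT5 alone stood at 7345, 1177 and 1637 CPM. CDH1 had 14800, 13459 and 15076 counts, and EPCAM 9428, 12457 and 10990. TP63, with 23645, 9759 and 29498 counts, and SFN, with 43529, 20652 and 52368, were lower in the 5FU line only. Summed fibroblast markers lay between 41.95 and 50.04 CPM with 4 to 5 of 6 above 3 counts and COL3A1 at 0 throughout. Of the 4 tested fibroblast markers 2 were more than 2-fold higher in both resistant lines, LUM with 120, 414 and 877 counts in CAL27, 5FU and OXA lines and COL1A2 with 90, 300 and 212, whereas COL1A1, the most abundant, had 1387, 1068 and 1050. Summed immune markers lay between 7.83 and 33.3 CPM (2 to 3 of 5 above 3 counts), and PTPRC, the marker of all leukocytes, had 2, 0 and 0 counts. The 3 endothelial markers were above 3 counts in each library and summed to between 2.57 and 9.27 CPM, with CDH5 at 43, 338 and 163 counts. CD14, the most counted immune marker, had 637, 1290 and 341 counts. The part of these marker differences in the Frizzled values was not tested. In RNA from a whole culture, fewer cells of a kind and less RNA per cell cannot be told apart.

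In all 3 lines 7 of the 10 genes had 198 counts or more, and FZD6 had the highest level of the family in each. Levels were compared between genes as FPKM, which divides by gene length, with 95% exact Poisson intervals that cover counting error only. FZD6, a receptor known for hair orientation and nail formation, stood at 34.2 FPKM in CAL27 (interval 33.3 to 35.2), 23.3 in the 5FU line (22.5 to 24.2) and 19.6 in the OXA line (18.9 to 20.3). FZD2, a receptor known in craniofacial and limb development, came next with 5.98, 8.59 and 6.07 FPKM in the same order of lines. FZD6 thus exceeded FZD2 by 5.73-fold in CAL27 (interval 5.35 to 6.15), but by 2.72-fold in CAL27/5FU and 3.22-fold in CAL27/OXA. These folds depend on the length given to FZD2, 3820 bases in the deposited values and 2112 exonic bases in GENCODE. With GENCODE exon lengths, a choice made after seeing the data, FZD6 exceeded FZD2 by 2.78-fold, 1.32-fold and 1.56-fold in the same order of lines. FZD5, which acts in the placenta, eye and intestinal epithelium, had 4.45, 4.30 and 4.10 FPKM, the narrowest relative range of these 7 genes. FZD1 had 2.998, 4.14 and 2.67 FPKM, and FZD7, known in intestinal stem cells, had 2.06, 4.23 and 3.67. FZD3, an axon guidance receptor, and FZD4, the receptor of Norrin in retinal vessels, both lay between 0.641 and 1.52 FPKM.

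The remaining 3 genes were near the limit of detection. FZD8 had 2, 20 and 14 counts in CAL27 and the 5FU and OXA lines, or 0.0150, 0.168 and 0.101 FPKM. FZD9, one of the genes lost in Williams syndrome, had 2, 4 and 4 counts. FZD10 had 2 counts in CAL27 and 0 in both resistant libraries, which allows up to 0.0766 CPM in CAL27/5FU and 0.0675 CPM in CAL27/OXA when 3 counts are taken as the limit. At this depth no difference in FZD9 or FZD10 between lines was detectable, and no fold is given for FZD10.

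**Figure D1:**
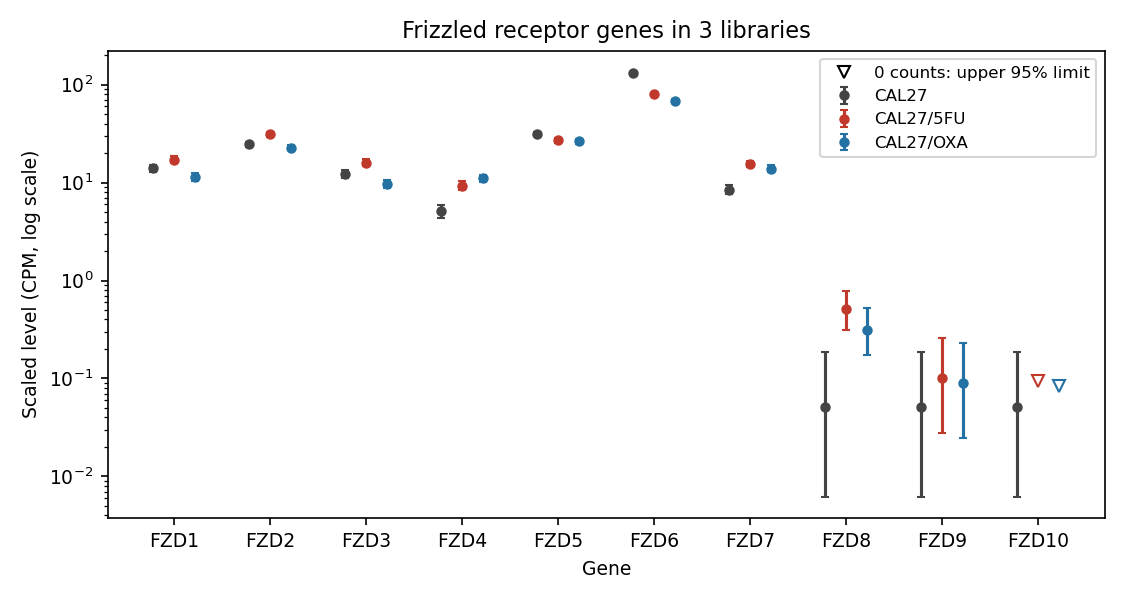
Scaled level of each Frizzled gene (CPM, log axis) in CAL27, CAL27/5FU and CAL27/OXA, 1 library each, with 95% exact Poisson intervals for counting error. Open triangles mark the upper limit where a gene had 0 counts. FZD6 has the highest level in all 3 libraries (131.1, 79.4 and 68.3 CPM), and FZD8, FZD9 and FZD10 lie at the bottom with 0 to 20 counts. CPM is not divided by gene length, so the order of genes here can differ from that in FPKM.

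The order of the genes was similar in the 3 lines. In CAL27 it ran FZD6, FZD2, FZD5, FZD1, FZD7, FZD3, FZD4, FZD9, FZD8 and FZD10, and the last 3 were not separable by counting error. In CAL27/5FU it ran FZD6, FZD2, FZD5, FZD7, FZD1, FZD4, FZD3, FZD8, FZD9 and FZD10, where FZD5 and FZD7, FZD7 and FZD1, FZD4 and FZD3, and FZD9 and FZD10 did not differ beyond counting error. CAL27/OXA had the same order as CAL27/5FU, with FZD8 and FZD9, and FZD9 and FZD10, inseparable. FZD7 and FZD4 each stood 1 place higher in the resistant lines than in CAL27, exchanging places with FZD1 and FZD3. The exchange of FZD7 and FZD1 depends on gene length: with GENCODE exon lengths FZD7 was above FZD1 in CAL27 as well (2.05 against 1.87).

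The family total was lower in both resistant lines than in CAL27. Summed over the 10 genes, Frizzled levels were 51.2, 47.4 and 38.5 FPKM in CAL27, CAL27/5FU and CAL27/OXA. Without FZD6 the sum was 17.0, 24.0 and 18.9 FPKM, and on the TMM-scaled CPM described below 95.75, 116.8 and 95.34, so CAL27/OXA was above CAL27 on the first scale only. Of the CAL27 sum FZD6 made up 66.8%, against 49.3% and 50.9% in the resistant lines. By counts alone its share was 57.8% (exact binomial interval 56.7 to 58.8) in CAL27, 40.5% (39.4 to 41.6) in CAL27/5FU and 41.7% (40.6 to 42.9) in CAL27/OXA. FZD7 took 4.01% of the FPKM sum in CAL27, 8.92% in the 5FU line and 9.54% in the OXA line, and FZD4 took 1.25%, 2.79% and 3.96%. FZD2 held 11.7%, 18.1% and 15.8%. With GENCODE exon lengths the FZD2 share was 21.3%, 31.2% and 27.6% and the FZD6 share 59.3%, 41.2% and 43.1%, so the FZD6 share was lower in both resistant lines with either set of lengths.

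**Figure D2:**
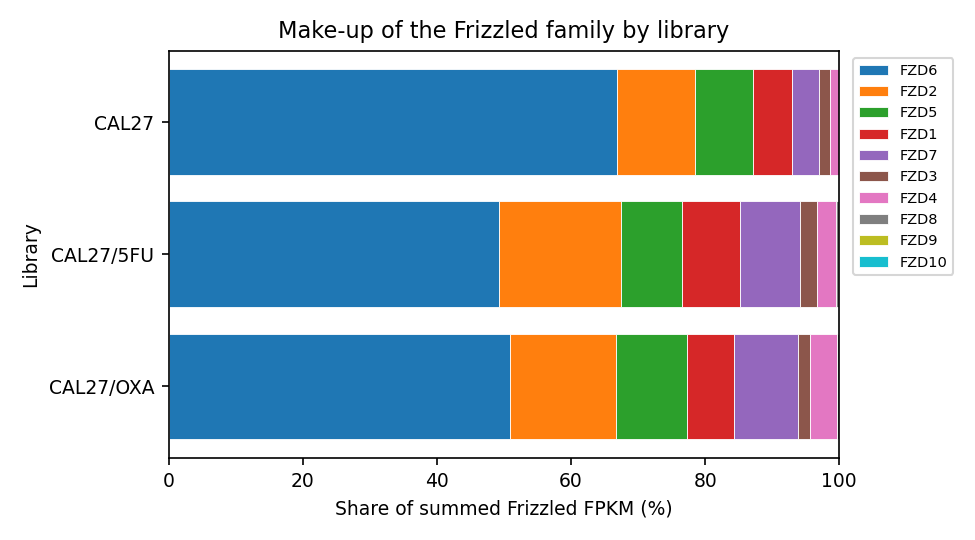
Share of each gene in the summed Frizzled level (percent of FPKM) in the 3 lines, 1 stacked bar per library. The FZD6 segment is 66.8% in CAL27, 49.3% in the 5FU line and 50.9% in the OXA line, and the FZD7, FZD4 and FZD2 segments are larger in both resistant lines.

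CAL27/5FU was compared with CAL27 to ask which receptors differ in cells resistant to 5FU. Ratios between libraries are given as log2 ratios of CPM after scaling by the trimmed mean of M values (TMM), with 2 counts added, over 13676 genes averaging at least 10 counts. A value of 1 is 2-fold, and intervals are exact 95% intervals for counting error. Of the 10 Frizzled genes 8 passed this filter, and FZD8 passed only through its counts in the resistant libraries. In CAL27/5FU 1 of these 8, FZD8, passed 2-fold upwards and 0 passed it downwards, beside 8.46% of all tested genes higher and 6.72% lower. The median log2 ratio of the 8 was 0.37, against 0.00 for all tested genes, and 6 of 8 were above 0 against 49.7% of all genes.

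FZD4 and FZD7 had the largest positive ratios in CAL27/5FU among well-counted Frizzled genes. FZD4 counts were 198 in CAL27 and 365 in the 5FU line, or 5.08 and 9.33 CPM, a log2 ratio of 0.87 (0.62 to 1.13). FZD7 counts were 331 and 607, or 8.497 and 15.5 CPM, a log2 ratio of 0.86 (0.67 to 1.07). Both were just short of 2-fold and ranked 1362 and 1373 among the 13676 genes from the highest ratio down. FZD8 had 2 and 20 counts, and the ratio of its levels was 9.95 with a counting interval of 2.42 to 87.8. With so few counts the size of the FZD8 difference is poorly fixed.

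FZD6, the most abundant member, had the lowest ratio. FZD6 counts were 5105 in CAL27 and 3106 in the 5FU line, or 131.1 and 79.4 CPM, a log2 ratio of -0.72 (-0.79 to -0.66) that was lower than all but 10.7% of tested genes. FZD3, its partner in planar polarity, had 475 and 626 counts and a log2 ratio of 0.39 (0.22 to 0.57). FZD1 had 545 and 672 counts with a log2 ratio of 0.29 (0.13 to 0.46), and FZD2 had 954 and 1224 counts with 0.35 (0.23 to 0.48). FZD5 counts were 1221 and 1053 (log2 ratio -0.22, interval -0.34 to -0.10). FZD6 and FZD5 were the only genes of the 8 below 0.

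CAL27/OXA was compared with the same CAL27 library to ask the same of oxaliplatin resistance. FZD4 and FZD8, 2 of the 8, passed 2-fold upwards here, beside 6.54% of all tested genes, and 0 passed it downwards, beside 9.28%. The median log2 ratio of the 8 was -0.18, against 0.01 for all tested genes, and 3 of 8 were above 0 against 50.5% of all genes. FZD4 counts were 198 in CAL27 and 490 in the OXA line, or 5.08 and 11.03 CPM, a log2 ratio of 1.11 (0.88 to 1.36) that ranked 758 of 13676. The FZD4 interval includes 2-fold. FZD8 had 2 and 14 counts, a ratio of 6.14 with a counting interval of 1.41 to 55.7.

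FZD7 and FZD6 lay on the same sides of 0 in CAL27/OXA as in CAL27/5FU. FZD7 had 614 counts in CAL27/OXA against 331 in CAL27, a log2 ratio of 0.70 (0.51 to 0.90). FZD6 had 3034 against 5105 counts, a log2 ratio of -0.94 (-1.01 to -0.88). FZD6 was thus near 2-fold lower, below all but 10.1% of tested genes. FZD1 had 505 counts and a log2 ratio of -0.30 (-0.48 to -0.12), and FZD3 had 430 counts and -0.33 (-0.52 to -0.14). Both were above 0 in CAL27/5FU. FZD2 had 1008 counts and a log2 ratio of -0.11 (-0.24 to 0.02), which is within counting error. It turned to 0.02 with total-count scaling and to 0.08 with the GC trend removed. FZD5 had 1170 counts and a log2 ratio of -0.25 (-0.37 to -0.13).

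**Figure D3:**
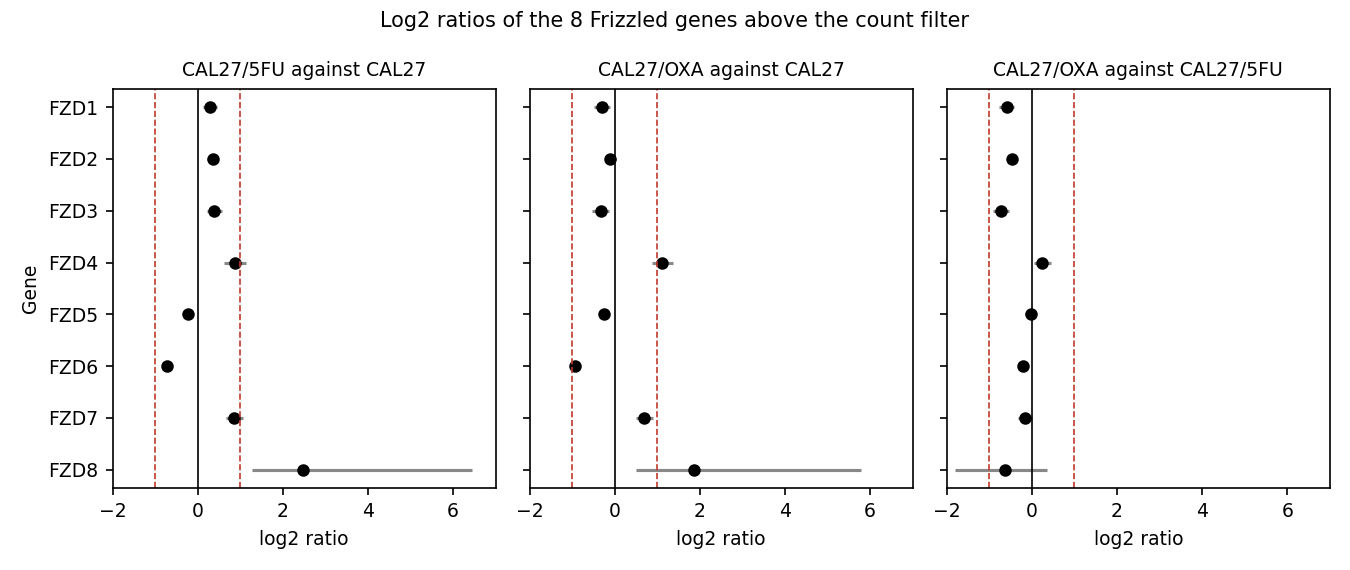
Log2 ratios of the tested Frizzled genes in the 3 comparisons, with exact 95% counting intervals; vertical lines mark no difference and 2-fold. FZD4 (0.87 and 1.11) and FZD7 (0.86 and 0.70) lie to the right in both comparisons with CAL27, FZD6 (-0.72 and -0.94) to the left, and the intervals of FZD8 are wide.

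The 2 resistant lines were then set against each other directly. In CAL27/OXA relative to CAL27/5FU 0 of 8 passed 2-fold upwards and 0 downwards, beside 4.18% and 8.38% of all tested genes. The median log2 ratio of the 8 was -0.34, against 0.01 for all genes, and only FZD4 was above 0, at 0.24 (0.04 to 0.44). FZD3 had the lowest ratio, -0.72 (-0.90 to -0.55), followed by FZD8 at -0.62 (-1.80 to 0.36). FZD1 stood at -0.59 (-0.76 to -0.43) and FZD2 at -0.46 (-0.58 to -0.34). FZD6 at -0.22 (-0.29 to -0.14) and FZD7 at -0.17 (-0.33 to 0.00) were close between the 2 resistant lines, and for FZD5 at -0.03 (-0.15 to 0.09) and FZD8 no difference was shown.

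Across the pair of ratios against CAL27, FZD1 and FZD3 had the most alike patterns, with a distance of 0.10 on the log2 scale over 3 libraries. Their counting intervals in CAL27/5FU, 0.13 to 0.46 and 0.22 to 0.57, are wider than this distance. Which member is nearest can therefore change with counting error. FZD4 and FZD7 were nearest to each other at 0.41, and the nearest pattern to that of FZD2 was that of FZD1, at 0.20. Among coding sequences the closest relatives were FZD2 and FZD7 with 81.0% identical bases, FZD1 and FZD2 with 79.1%, FZD5 and FZD8 with 77.0% and FZD9 and FZD10 with 73.1%. FZD3 and FZD6, at 59.7%, are each other's closest relative. The member nearest in pattern was the member nearest in sequence for 0 of the 8 tested genes. FZD1, nearest in pattern to FZD2, is second to FZD7 in sequence. For FZD4 no match was possible, because FZD10, its nearest in sequence, was under the filter. With so few genes, and nearest members that counting error can change, this count cannot show whether pattern follows sequence. The longest identical run between FZD1 and FZD2 is 81 bases and between FZD5 and FZD8 51 bases. How the counting treated reads that match both members is not given in the sources used here, so counts of these pairs, and the 2 to 20 counts of FZD8 in particular, could be divided uncertainly.

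Most of the genes have few exons. In the GENCODE annotation of GRCh38, FZD1, FZD2, FZD7, FZD8, FZD9 and FZD10 have 1 exon, FZD4 and FZD5 have 2, and FZD3 and FZD6 have 7. FZD7 lies at chr2:202034587-202038445 on the plus strand and FZD4 at chr11:86945679-86955391 on the minus strand. FZD4 shares 1399 of its 7383 exonic bases (18.95%) with PRSS23, a serine protease gene on the opposite strand. PRSS23 had 3275, 4573 and 5859 counts in CAL27 and the 5FU and OXA lines, log2 ratios of 0.47 and 0.65 against CAL27. It is not stated whether counting used strand, so reads from the shared stretch cannot be assigned to one gene or the other, and the part of PRSS23 in the FZD4 counts was not tested.

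The promoters of FZD4 and FZD8, the genes called more than 2-fold higher in a resistant line, are shown to give the sequence context of their starts. The FZD8 call rests on 2 counts in CAL27, and the FZD4 interval in CAL27/OXA includes 2-fold. Of the 10 genes 5 (FZD1, FZD4, FZD5, FZD8 and FZD9) matched the RefSeq promoter table of GRCh38.p14, whose windows run from 250 bases before to 50 after the start. Each line gives the 250 bases before the start, 5′ to 3′ on the strand of the gene (minus for both). Capitals mark 3 promoter motifs, each searched on both strands with overlapping matches counted. The GC box, which binds SP1 and its relatives, was searched as GGGCGG. The box bound by the factor NF-Y was searched by the letters of its name, the CCAAT box. The box bound by the TATA-binding protein was searched as TATAAA. FZD4 is at chr11:86955396-86955645 and FZD8 at chr10:35642297-35642546.
FZD4: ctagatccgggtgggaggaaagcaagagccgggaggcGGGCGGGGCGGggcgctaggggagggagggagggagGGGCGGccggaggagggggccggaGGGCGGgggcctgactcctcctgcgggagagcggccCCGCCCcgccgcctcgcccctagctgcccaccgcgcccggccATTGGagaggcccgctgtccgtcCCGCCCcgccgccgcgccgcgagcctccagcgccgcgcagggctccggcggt
FZD8: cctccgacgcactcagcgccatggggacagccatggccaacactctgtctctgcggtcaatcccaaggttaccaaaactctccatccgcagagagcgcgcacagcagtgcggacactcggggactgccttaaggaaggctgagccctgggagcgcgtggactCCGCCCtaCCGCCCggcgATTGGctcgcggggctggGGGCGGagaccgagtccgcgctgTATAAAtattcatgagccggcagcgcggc
The FZD4 window of 300 bases is 79.7% G and C with 40 CpG and 6 GC boxes, against a median of 58.7% and 14 CpG over 35116 promoters. FZD8 has 67.0% G and C, 31 CpG, 3 GC boxes and a TATA box 29 bases before the start. A GC box was found in 44.95% of all windows, a CCAAT box in 34.6% and a TATA box in 11.5%, and FZD8 was the only one of the 5 with a TATA box. FZD5, the closest relative of FZD8, has 77.0% G and C and 6 GC boxes, in a window that does not overlap its GENCODE gene. The core motif of TCF and LEF, the factors that carry β-catenin on DNA, was searched as CTTTGAT on both strands. It was found in 0 of the 5 Frizzled windows and in 2.62% of all windows, which says only that these letters are not in these windows.

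To see whether whole regions differed with a gene, 5 tested genes to either side of it were taken, the closest ones. FZD6 lies at chr8:103298433-103332866 on the plus strand. Its 10 neighbours had a median log2 ratio of -0.55 in CAL27/5FU and -0.59 in CAL27/OXA, with 8 of 10 below 0 in both, beside -0.72 and -0.94 for FZD6. Over the 457 tested genes of chromosome 8 the medians were -0.27 and -0.54. The neighbours of FZD6 ranged from -0.95 to 1.92 in the 5FU line and from -1.29 to 1.48 in the OXA line. The lower FZD6 level thus stood among lower levels of most of its neighbours, and their part in it was not tested. FZD3, on the same chromosome at chr8:28494205-28574268, had neighbours with medians of -0.10 and -0.07.

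FZD4 lay among genes with a median of 0.35 in the 5FU line and 0.30 in the OXA line. Their range was wide, from -0.86 to 2.21 in the former and from -1.03 to 5.23 in the latter. The neighbours of FZD7 had medians of 0.24 and 0.12, and those of FZD8 0.04 and 0.11. Those of FZD8 are spread over chr10:33177492-42638568 and ranged from -0.76 to 2.35 in the 5FU line and from -0.92 to 1.66 in the OXA line. All 10 neighbours of FZD9 were below 0 in CAL27/5FU with a median of -0.97, whereas in CAL27/OXA their median was -0.05. FZD9 itself had too few counts for a comparison. For FZD1, FZD2, FZD5 and FZD10 the medians of the neighbours lay between -0.08 and 0.08 in both lines.

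**Figure D4:**
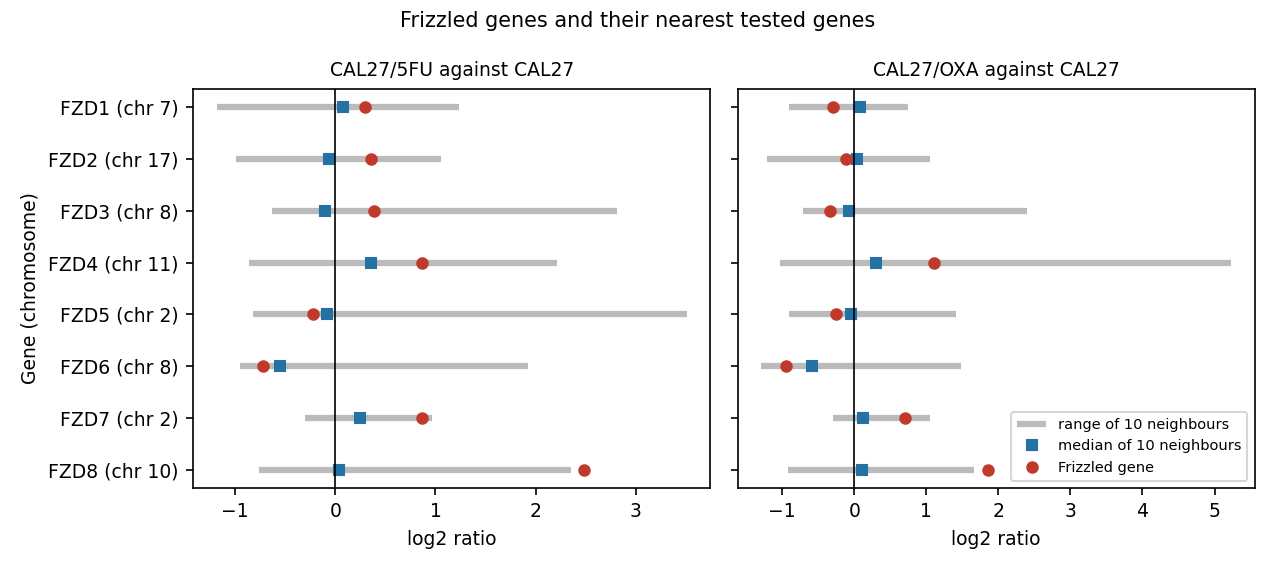
Log2 ratio of each Frizzled gene and of its 10 nearest tested genes against CAL27, in CAL27/5FU and CAL27/OXA. Around FZD6 the neighbours have medians of -0.55 and -0.59 and highest values of 1.92 and 1.48. Around FZD8 they have medians of 0.04 and 0.11 and highest values of 2.35 and 1.66, beside FZD8 ratios that rest on 2 counts in CAL27.

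The partners of the Frizzleds were followed as lists of 55 genes, of which 36 passed the filter. In CAL27/5FU 9 were more than 2-fold higher and 4 lower, beside 8.46% and 6.72% of all tested genes, and the median log2 ratio was 0.33. The 9 became 4 when a mean of 50 counts was required. In CAL27/OXA 6 were higher and 7 lower, beside 6.54% and 9.28%, with a median of -0.26. Between the resistant lines 0 were higher and 7 lower in CAL27/OXA, beside 4.18% and 8.38%, with a median of -0.40. The same shares of all genes are the background of each smaller list, where 1 or 2 genes can make up the whole count. The ligands, co-receptors and regulators are described in turn, each ratio in CAL27/5FU before that in CAL27/OXA.

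Of 19 WNT ligands 11 were tested, with 3 higher and 2 lower in CAL27/5FU and 4 higher and 4 lower in CAL27/OXA. WNT3, a canonical ligand, had 304 counts in CAL27, 609 in the 5FU line and 751 in the OXA line, log2 ratios of 0.99 and 1.11. WNT7B had 1109, 1817 and 4057 counts (0.70 and 1.68), and its close relative WNT7A had 348, 525 and 896 (0.58 and 1.17). WNT3, WNT7A and WNT7B passed 2-fold in CAL27/OXA and not in CAL27/5FU. WNT3 was near 2-fold in both lines, and its direct log2 ratio of CAL27/OXA to CAL27/5FU was 0.12 (-0.04 to 0.28), within counting error. The direct ratios of WNT7A and WNT7B were 0.59 (0.43 to 0.75) and 0.98 (0.90 to 1.06). WNT5A, the best known non-canonical ligand, had 165, 501 and 315 counts (1.58 and 0.74) and was 1 of the 3 called higher in CAL27/5FU. The others were WNT10B, with 19, 61 and 18 counts (1.58 and -0.24), and WNT16, with 6, 17 and 20 counts (1.25 and 1.30), which also passed 2-fold in CAL27/OXA. Both have few counts and are named because the count includes them, and WNT16 passed the filter only through the resistant libraries. WNT4, a ligand of urogenital development, had 694, 43 and 15 counts, log2 ratios of -3.96 and -5.53, the lowest of the ligands. WNT10A, known from tooth and skin development, had 1356, 753 and 455 counts (-0.85 and -1.76). WNT2B had 129, 52 and 58 counts (-1.29 and -1.31), and WNT9A had 96, 51 and 29 (-0.89 and -1.84).

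Of 6 co-receptors 5 were tested, and 1 was higher and 0 were lower in each resistant line. The 1 was ROR1, a receptor tyrosine kinase for WNT5A, with 9, 69 and 40 counts (2.69 and 1.76), which passed the filter through the resistant libraries. The other 4 were within 2-fold. LRP5 had 5570, 6396 and 5202 counts (0.19 and -0.29), and LRP6 had 1432, 1993 and 1743 (0.47 and 0.09). These are the canonical co-receptors. RYK, a WNT receptor with an inactive kinase domain, had 5377, 3184 and 3817 counts (-0.76 and -0.68), and PTK7, a pseudokinase of planar polarity, had 4968, 3667 and 3262 (-0.44 and -0.80). Of 4 Norrin and WNT7 partners 3 were tested, with 2 higher in CAL27/5FU, 1 higher in CAL27/OXA and 0 lower in either. TSPAN12, the tetraspanin that joins FZD4 in Norrin signalling, had 122 counts in CAL27, 412 in the 5FU line and 417 in the OXA line, log2 ratios of 1.73 (1.45 to 2.05) and 1.57 (1.29 to 1.89). The other gene called in CAL27/5FU was ADGRA2, the adhesion receptor that works with WNT7 ligands, with 9, 22 and 7 counts (1.13 and -0.44), which passed the filter only through the 5FU line. NDP, the gene of Norrin itself, had 0 counts in all 3 libraries.

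Of 9 genes of receptor turnover 4 were tested, with 2 higher in CAL27/5FU, 0 higher in CAL27/OXA and 0 lower in either. ZNRF3 had 452, 945 and 830 counts (1.05 and 0.69), and RNF43 had 925, 1128 and 1494 (0.28 and 0.50). Both encode ligases that remove Frizzleds, and ZNRF3 was 1 of the 2 called in CAL27/5FU. The other was RSPO4, a secreted R-spondin that keeps these ligases away from Frizzleds, with 26, 89 and 23 counts (1.70 and -0.34). LGR4, a receptor of R-spondins, had 4722, 3926 and 3334 counts (-0.27 and -0.69). Of 5 soluble Frizzled-related proteins, which bind WNT outside the cell, 1 was tested and was within 2-fold in both.

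Inside the cell, 0 of the 3 Dishevelled genes passed 2-fold in either line. DVL1 had 4781, 6161 and 5129 counts (0.36 and -0.09), DVL2 had 2974, 2186 and 2348 (-0.45 and -0.53) and DVL3 had 5681, 4045 and 4337 (-0.50 and -0.58). Of the 8 planar cell polarity genes, all tested, 1 was higher and 2 were lower in CAL27/5FU, and 0 were higher and 2 lower in CAL27/OXA. VANGL2, a core membrane protein of that system, had 606, 203 and 114 counts (-1.58 and -2.58). CELSR2, a cadherin of the same system, had 3727, 1811 and 731 counts (-1.05 and -2.54). PRICKLE1, a cytoplasmic protein of the same system, had 30, 120 and 37 counts (1.93 and 0.11). SMO, the Hedgehog signal transducer that is the one class F relative of the Frizzleds, had 1793, 1158 and 1003 counts (-0.64 and -1.03).

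**Figure D5:**
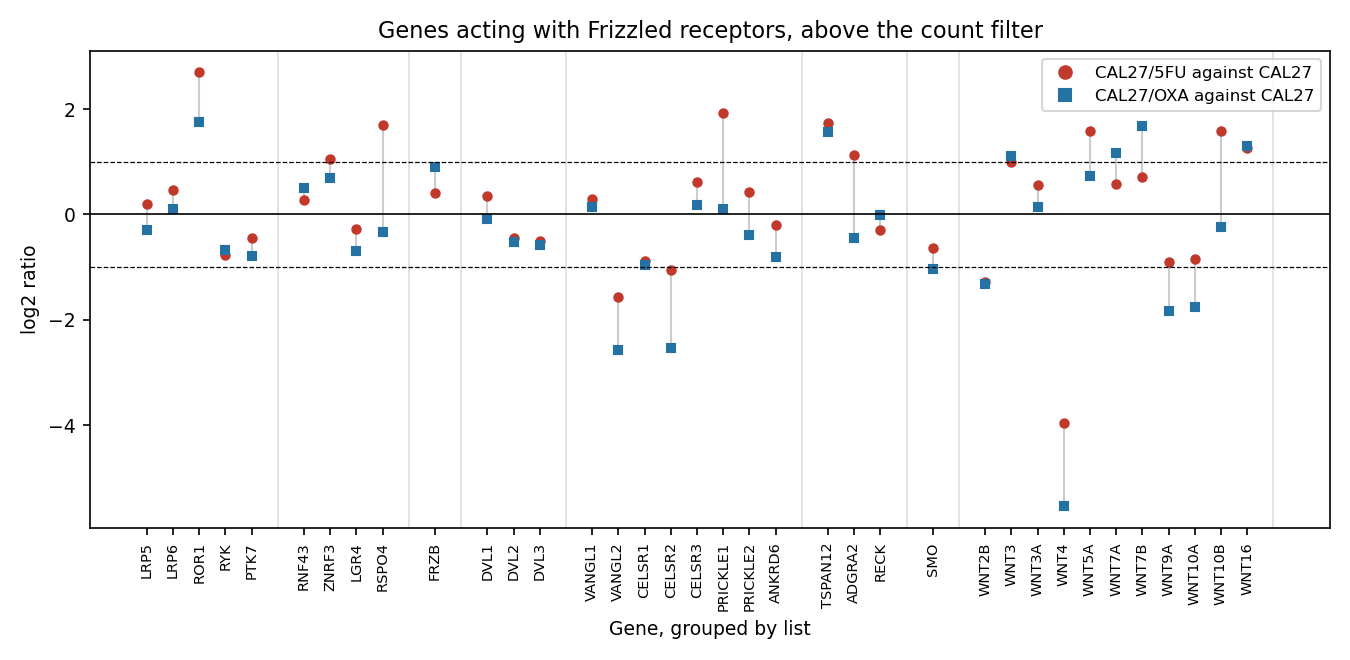
Log2 ratios of the 36 tested partner genes in CAL27/5FU (circles) and CAL27/OXA (squares) against CAL27, grouped by list. Grey lines join the 2 ratios of a gene and are not intervals, and dashed lines mark 2-fold. TSPAN12 (1.73 and 1.57) and WNT3 (0.99 and 1.11) lie above 0 in both lines, and VANGL2 (-1.58 and -2.58), CELSR2 (-1.05 and -2.54) and WNT4 (-3.96 and -5.53) below it.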

How the data were processed

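Total RNA from 3 cultures (1 library per line) was sequenced after NEBNext Ultra library preparation. Per the labels, reads were handled with CASAVA 1.8 and aligned with HISAT2 2.0.5 to GRCh38/hg38. The counting tool, gene annotation and strand setting are not given in the sources used here. The authors deposited raw counts per gene and, in another table, FPKM values. FPKM followed from the counts by 1 length per gene within 0.1% for 14367 of 14367 genes. Each table holds 3 further columns of per-sample values, whose names give the same 3 lines with another number. They match no sample among the labels, what they hold was not analysed here, and they were not used.

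Counts were scaled by TMM (edgeR 4.0.16, R 4.3.3, factors 0.932 to 1.05) and log2 CPM computed with a prior count of 2 for genes averaging 10 counts or more. The pair of counts gave exact 95% Clopper-Pearson intervals, and levels exact Poisson intervals (scipy 1.17.1). These cover counting error only. 1 count equals 0.0225 to 0.0257 CPM. The scripts were tested on simulated data.

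The Frizzled genes and all lists were chosen with earlier results of these data known. Named were all FZD genes, LRP5, LRP6, RNF43, ZNRF3, DVL1, DVL2, DVL3 and SMO, and other list genes averaging 50 counts or more and more than 2-fold apart from CAL27. Genes named outside this rule (NDP, PRSS23, ROR1, RYK, PTK7, ADGRA2, RSPO4, LGR4, WNT10B, WNT16 and marker genes) were chosen after their values were seen. Coding sequences from GENCODE 29 were aligned with MAFFT 7.526. A planned comparison of protein features was not run. Other settings of scaling, filter, prior count, measure and gene length were tried. With 1 labelled library per line no model with replicates was fitted.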

Additional observations from a re-analysis of the deposited data

Results flagged for a closer look

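FZD1 and FZD3 lay on opposite sides of 0 in the 2 resistant lines. The log2 ratio of FZD1 against CAL27 was 0.29 in CAL27/5FU (545 and 672 counts) and -0.30 in CAL27/OXA (505 counts). That of FZD3 was 0.39 in CAL27/5FU (475 and 626 counts) and -0.33 in CAL27/OXA (430 counts). Each counting interval excluded 0. Both comparisons share the CAL27 library, each line has 1 library, and the difference was not tested. The direct log2 ratios of CAL27/OXA to CAL27/5FU were -0.59 for FZD1 and -0.72 for FZD3.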

How the results depend on the processing

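With 1 labelled library per line nothing here has a replicate check, and leaving out a library was not possible. No paired analysis was possible because each line has 1 labelled library. Of the single Frizzled ratios under other settings 219 moved by less than their counting error and 36 by more, and FZD2 in CAL27/OXA, itself within counting error, changed sign in 5 settings. Counts of called genes stayed within 1.5 times in 159 cases and not in 57. Shares of the family level, taken by counts or with GENCODE lengths, moved by more than counting error in 26 cases and not in 34. GC removal and GENCODE lengths were chosen after seeing the data.

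Total-count scaling moved the median of all genes to 0.17 (5FU) and 0.14 (OXA) and the higher share of called genes from 55.7% to 67.2% (5FU) and from 41.3% to 51.1% (OXA). The Frizzled medians became 0.54 and -0.047, and 3 Frizzled genes were higher in CAL27/5FU, FZD4 reaching 1.04 and FZD7 1.03. FPKM with 0.1 added gave 65.6% and 49.3%, 2 higher Frizzled genes (5FU), 1 (OXA) and a median of -0.046 (OXA). Without a filter 1 Frizzled gene was lower in each resistant line, FZD10 with its 2 and 0 counts. The genes compared then numbered 16350. Of these 1899 were higher and 1555 lower (5FU), 1348 and 1925 (OXA), and 981 and 1861 (OXA against 5FU). Pathway genes were 1 higher and 11 lower in the last comparison. With a mean minimum of 50 counts, met by 12206 genes, FZD8 dropped out, leaving 0 higher Frizzled genes (5FU) and 1 (OXA). Pathway genes were then 4 higher (5FU) and 4 lower (OXA against 5FU). Of the 12206 genes 760 (5FU) and 369 (OXA against 5FU) were higher. FPKM with 1 added left 0 and 0 Frizzled genes higher, with FZD8 at 0.20 and 0.12 and FZD4 in CAL27/OXA at 0.62. Pathway genes were then 1 higher and 1 lower (5FU), 3 and 4 (OXA) and 1 lower (OXA against 5FU). All genes were 503 and 311, 368 and 481, and 165 and 437, and the Frizzled median was -0.034 (OXA). With a mean FPKM of at least 1 as well, met by 11394 genes, 0 and 0 Frizzled genes were higher. Pathway genes were 1 and 1, 3 and 4, and 1 lower. Of the 11394 genes 482 and 292, 345 and 452, and 153 and 415 were called. The Frizzled median was -0.038 (OXA). Counting only genes whose whole interval passed 2-fold gave 0 Frizzled genes higher in CAL27/OXA, pathway genes 5 higher and 2 lower (5FU), 2 higher (OXA) and 4 lower (OXA against 5FU), and 749 higher and 593 lower (5FU), 526 higher (OXA), and 319 and 709 (OXA against 5FU) over all genes. With the GC trend removed FZD6 in CAL27/OXA was -1.06, so 1 Frizzled gene was lower, and 1 pathway gene was higher (OXA against 5FU). The cause of these shifts was not tested where fewer genes or counts do not show it.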
